A study of Mus musculus with 6 samples.

Results

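The mature miRNAs of the miR-379 to miR-410 subcluster were examined in the intestine of mice with experimental necrotizing enterocolitis (NEC) and of Control mice. They were chosen by name: every entry of the expression table, of either arm, whose stem is among 39 stems from miR-379 to miR-410, including miR-3072 just beyond it. This gave 55 of the 604 miRNAs in the table, from 36 of the 39 stems. No arm of miR-654, miR-544 or miR-453 was listed. There were 3 NEC and 3 Control libraries, all labelled wild type. Pups of the NEC group were gavaged with 40 μl of 33% Esbilac formula every 4 h for 96 h, from the fifth day of life, and went every 12 h through 100 s of hypoxia in nitrogen and 10 min of cold at 4 °C. Control pups carry the treatment label PBS, stayed with the dam and had neither stress. The tissue is labelled intestine, and the study's methods name the ileum of C57BL/6J mice. No label ties a library to a pup of its own. The p-values therefore reflect only how these libraries scatter, and that scatter may be technical.

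The subcluster belongs to the imprinted Dlk1-Dio3 region, where the non-coding RNAs are made from the maternal chromosome. A miRNA is cut from a hairpin in a long primary transcript, and either strand of the stem, called the 5p or the 3p arm, can be kept as the mature miRNA. Bases 2 to 8, the seed, select the mRNAs that the miRNA represses. In mice this subcluster is known for its high expression in the brain and in the embryo, and mice that lack it are known for failing to adapt their metabolism after birth.

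The hairpins lay on chromosome 12 of GRCm38.p6, from 109709060 to 109747960, a span of 38901 bp with a median gap of 590 bp between neighbours. RefSeq gave a hairpin locus for 37 of the 39 stems. All of these were on the plus strand except Mir299b, whose 49 bases lie opposite Mir299a on the minus strand. Mirg, the host non-coding RNA after which the subcluster is called, is annotated by GENCODE from 109729764 to 109749460. This annotation, used below, held 14 of the 37 hairpins, 9 overlapping its exons and 5 in its introns. The other 23, from Mir379 to Mir539, lay before its annotated start. RefSeq starts Mirg later, at 109734981, after Mir382, Mir134, Mir668 and Mir485. Most of the hairpins, Mir379 among them, thus lie outside the annotated Mirg, and the members are called the subcluster here.

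RefSeq gave a mature sequence for 52 of the 55 members, all but miR-376c-3p, miR-485-5p and miR-487b-3p. The lengths of the tested members ran from 18 to 25 bases. The first set below holds the most abundant members, with the seed in capitals, since they make up most of the subcluster's signal.
miR-381-3p: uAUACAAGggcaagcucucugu
miR-300-3p: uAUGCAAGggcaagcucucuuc
miR-379-5p: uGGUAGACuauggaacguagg
miR-411-5p: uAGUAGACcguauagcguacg
miR-541-5p: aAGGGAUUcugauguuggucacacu
MiR-300-3p differed from miR-381-3p by A4G, G21U and U22C, counted from the 5′ end of miR-381-3p, and the first of these lies in the seed. The seed of miR-379-5p, GGUAGAC, is shared with miR-1193-5p, and miR-379-3p and miR-411-3p share the seed AUGUAAC. The 52 sequences held 49 distinct seeds, the third shared one being that of miR-299a-3p and miR-299b-3p. Seeds were compared over the 526 of the 604 listed miRNAs that had a sequence. Outside the subcluster, miR-362-3p has the seed of miR-329-3p, miR-370-5p that of miR-1193-3p, and miR-1983 that of miR-412-3p. Searched on the mature strand, the word ACACGG occurred in 5 of 34 member hairpins with a sequence (14.7%). It occurred in 0 of the 343 other hairpins of the table with a sequence, and GGUCCA likewise in 5 and 0. Both were picked after the search, as those words of 6 bases that were found in the most member hairpins and in no other.

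The second set holds both arms of miR-369, whose 5p arm is named in the study, and of the miR-299 hairpins, whose sequences overlap.
miR-369-5p: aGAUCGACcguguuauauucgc
miR-369-3p: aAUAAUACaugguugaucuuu
miR-299a-5p: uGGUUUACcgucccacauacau
miR-299b-5p: gGUUUACCgucccacauacau
miR-299a-3p: uAUGUGGGacgguaaaccgcuu
miR-299b-3p: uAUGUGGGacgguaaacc
All 21 bases of miR-299b-5p lie within miR-299a-5p, and all 18 bases of miR-299b-3p within miR-299a-3p. A read with the shared bases fits both entries, and the sources used here do not say how such reads were assigned. The values of the miR-299 entries are therefore uncertain as to their hairpin.

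The table holds normalized values on a log2 scale as the authors deposited them, with no counts, so depth is unknown and no counting error can be given. The transformation is not named, and differences are not read as fold changes of counts. The codes of the libraries form 2 series. Control replicates 1 and 2 and NEC replicates 2 and 3 form code series 1, called series 1 below, and Control replicate 3 and NEC replicate 1 form series 2. The libraries of series 2 stand apart from the rest, with Spearman's correlations across miRNAs of 0.959 to 0.971 between series against 0.984 to 0.992 within. The sources used here do not say what the codes stand for. The differences between NEC and Control of the tested members are therefore also given by code series, for the main ones in the text and for all 43 in the plot of differences by code series. Markers of intestinal epithelium were present, all 8 of 8 tested, with 18.9% to 28.0% of the back-transformed total per library. In bulk tissue, fewer cells of a type and less of a miRNA per cell cannot be told apart.

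The subcluster held 0.921%, 1.15% and 0.994% of the back-transformed total in Control replicates 1, 2 and 3 and 1.29%, 1.57% and 1.24% in NEC replicates 1, 2 and 3. The lowest NEC library thus lay above the highest Control library. These shares, like every value of NEC against Control below, are a description, because the subcluster was proposed with the differences between NEC and Control in view. Most of the signal came from few members. MiR-381-3p alone made up 43.8% to 60.2% of the subcluster per library, and with miR-379-5p 68.7% to 75.5%. Adding miR-541-5p, miR-411-5p and miR-300-3p brought this to 81.8% to 87.9%.

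MiR-381-3p had log2 values of 13.09, 13.11 and 13.62 in Control replicates 1, 2 and 3 and of 14.02, 13.54 and 13.20 in NEC replicates 1, 2 and 3, which ranked 22nd of the 604 miRNAs by mean. MiR-379-5p, from the first hairpin of the subcluster, was at 11.88, 11.61 and 11.52 in Control and at 12.04, 12.24 and 12.40 in NEC. The ranges of these 2 miRNAs did not overlap with each other or with any other member. MiR-541-5p (10.10 to 11.11 over the 6 libraries), miR-411-5p (9.20 to 10.49) and miR-300-3p (8.39 to 9.31) came next. From miR-541-5p on, the ranges of tested neighbours in this order overlapped, so that their order is not set by these libraries.

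Of the 55 members, 43 reached the minimum for testing, 3 or more libraries with a log2 value no lower than 3.32 (10 after back-transformation), and 41 of these reached it in all 6. The others were miR-3072-3p, under the minimum in both libraries of series 2, and miR-299b-3p, under it in Control replicate 2. Of the tested members, 3 had a mean of at least 10, 10 one between 7 and 10, and 30 a lower one. The 12 members not tested had means of 0.82 to 3.42 and single values of 0.62 to 4.31, and their differences between NEC and Control ran from -0.21 to 0.46, with 9 of the 12 above 0.

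**Figure D1:**
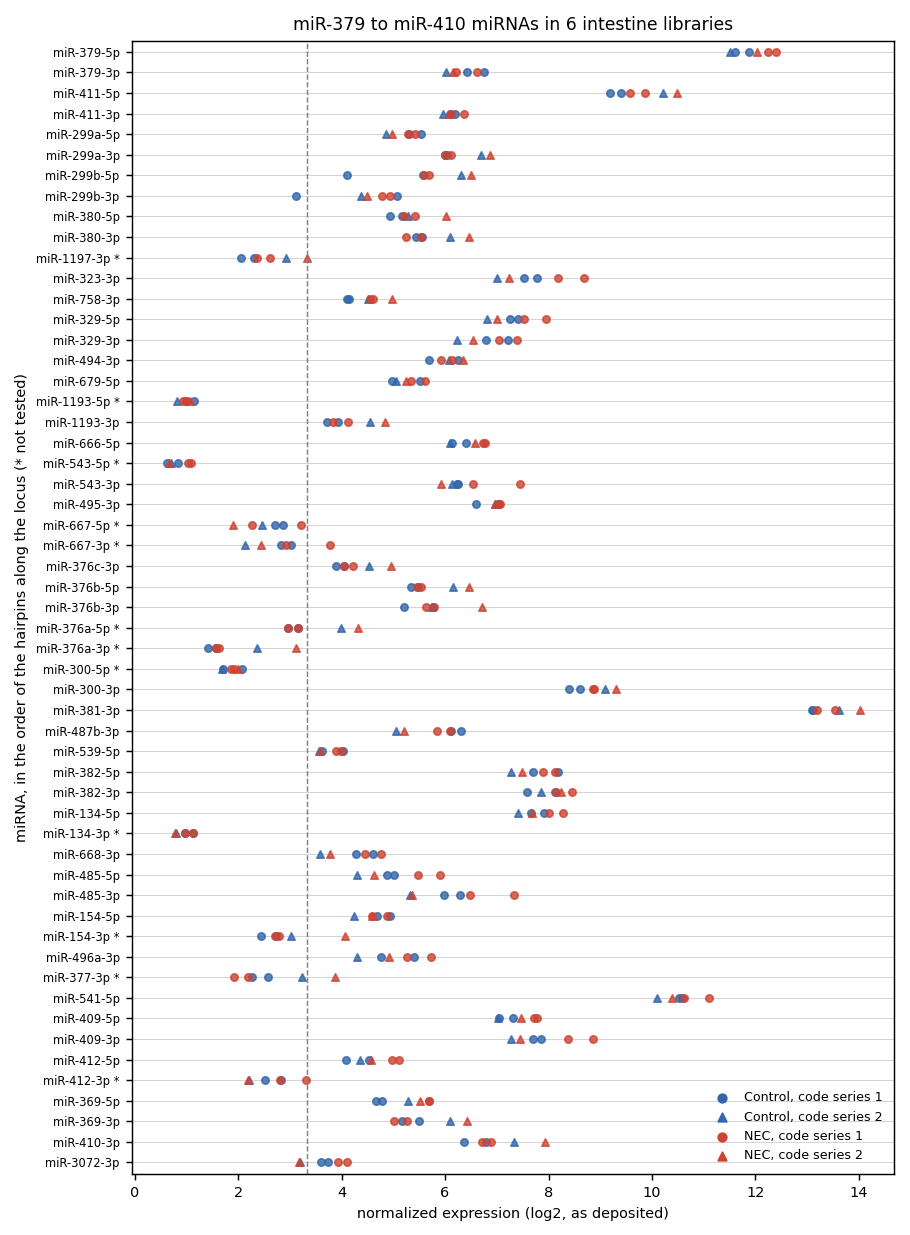
Normalized log2 value (horizontal axis) of the 55 members in each of the 6 libraries, in the order of the hairpins along the locus (vertical axis). Blue points are Control, red points NEC, circles series 1 and triangles series 2, and the dashed line is the minimum of 3.32. MiR-381-3p and miR-379-5p lie to the right of all others, and hairpins close together differ widely. Such are miR-376a-5p (mean 3.42), the higher arm of its hairpin, and miR-381-3p (mean 13.43).

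Neighbouring hairpins had very different levels. Within 4179 bp, from Mir376c to Mir381, the means of the mature miRNAs ran from 1.87 for miR-300-5p and 1.94 for miR-376a-3p to 13.43 for miR-381-3p. MiR-300-5p and miR-376a-3p are the lower arms of their hairpins, and the other arms had means of 8.86 and 3.42. The arms of 1 hairpin also differed. Both arms were listed for 19 hairpins, the 5p arm having the larger mean in 8 and the 3p arm in 11, with a gap of more than 2 on the log2 scale in 6. The arm gap, 5p minus 3p, was 6.86 for miR-134, whose 5p arm limits the size of dendritic spines in rat neurons, 5.59 for miR-379 and 3.66 for miR-411. It was -6.98 for miR-300, -5.60 for miR-543 and -3.17 for miR-1193. In miR-376b, miR-667, miR-382, miR-369 and miR-380 the arms were within 0.4 of each other, the gaps being -0.07, -0.29, -0.30, -0.31 and -0.38. Hairpins of the miR-376 family are known for adenosine-to-inosine editing within the seed in mouse and human brain, and the table gives no edited forms apart.

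The libraries of NEC and Control were then set side by side. In limma, 0 of the 386 miRNAs tested in the whole table passed an adjusted p under 0.05 (a background of 0%), members included, the smallest adjusted p being 0.998. At an unadjusted p under 0.05 there were 11 of 386 (2.85%), 7 of them higher (1.81%) and 4 lower in NEC (1.04%). MiR-369-5p, among the higher ones, was the 1 member. A robust fit in limma gave 21 at an unadjusted p under 0.05 (5.44%), 4 of them members, and again 0 at an adjusted p under 0.05. The mean was higher in NEC for 39 of the 43 tested members, against 200 of all 386 (51.8%). The median difference, NEC minus Control, was 0.32 over the members and 0.01 over all miRNAs tested. Nothing beyond a description is read from these counts.

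Within series 1 the median of the members was 0.27 and within series 2 it was 0.25. For 34 of the 43 the difference was above 0 in both code series (30.1% of all miRNAs tested), for 0 it was below 0 in both (33.4%), and for 9 the code series had opposite signs. When each library was shifted by its 75th percentile, 35 of 43 members were above 0, with a median of 0.23. Over the 5p arms 17 of 18 tested members were above 0, with a median of 0.36, and over the 3p arms 22 of 25, with a median of 0.25. Among the 16 tested members within the annotated Mirg 15 were above 0 (median 0.39), and among the 27 before it 24 (median 0.25).

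**Figure D2:**
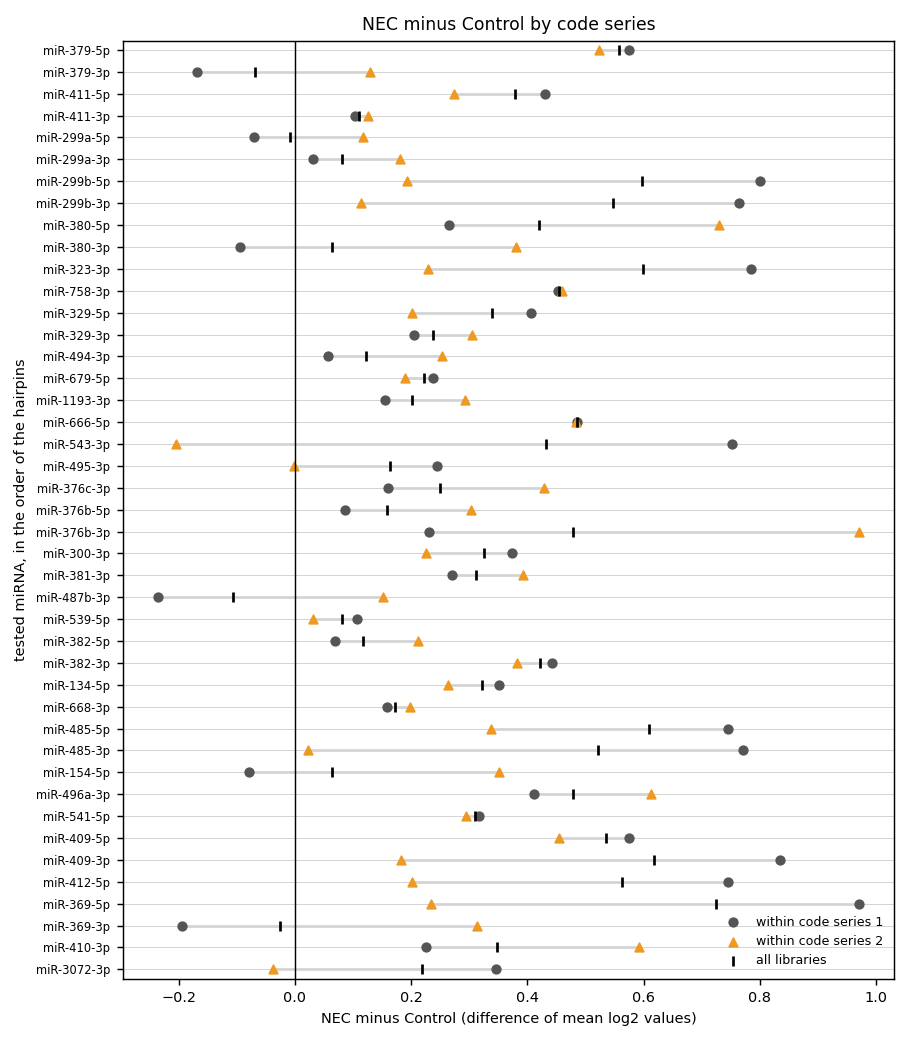
Difference of mean log2 values, NEC minus Control (horizontal axis), of the 43 tested members in the order of the hairpins (vertical axis). Grey circles are the differences within series 1, orange triangles those within series 2 and black bars those over all libraries, which were above 0 for 39 members. The code series lie close together for miR-758-3p and miR-666-5p and far apart for miR-369-5p (0.97 and 0.23) and miR-543-3p (0.75 and -0.21).

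The largest difference was that of miR-369-5p. Its log2 values were 4.65, 4.78 and 5.28 in Control replicates 1, 2 and 3 and 5.52, 5.69 and 5.68 in NEC replicates 1, 2 and 3. All NEC values lay above all Control values, although the highest Control and the lowest NEC library, both of series 2, were close. The difference was 0.72 (standard error 0.26), with 0.97 in series 1 and 0.23 in series 2. For the other arm, miR-369-3p, the values were 5.49, 5.17 and 6.10 in Control and 6.42, 5.01 and 5.26 in NEC, a difference of -0.03 (standard error 0.43), with -0.19 in series 1 and 0.31 in series 2. In series 1 the arms thus had differences of opposite sign, and in series 2 both were above 0. The 5p minus 3p value was -0.84, -0.39 and -0.82 in Control, and in NEC it was -0.90 in replicate 1, 0.68 in replicate 2 and 0.43 in replicate 3. The 5p arm was the larger one in NEC replicates 2 and 3, both of series 1, and in no other library. Between the groups this arm gap differed by 0.75 (standard error 0.45), with 1.16 in series 1 and -0.08 in series 2.

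MiR-369 lies in a run of 4 hairpins, Mir409, Mir412, Mir369 and Mir410, within 638 bp, from 109743158 to 109743795. MiR-409-5p was at 7.31, 7.04 and 7.02 in Control and at 7.48, 7.78 and 7.71 in NEC, a difference of 0.53 (standard error 0.23), with 0.57 in series 1 and 0.45 in series 2 and no overlap between the groups. MiR-409-3p was at 7.85, 7.71 and 7.27 in Control and at 7.45, 8.86 and 8.37 in NEC. Here NEC replicate 1 lay among the Control values. The difference of miR-409-3p was 0.62 (standard error 0.39), with 0.84 in series 1 and 0.18 in series 2, and it was 0.30 without NEC replicate 2 and 1.01 without NEC replicate 1. MiR-412-5p had values of 4.52, 4.08 and 4.36 in Control and of 4.56, 5.12 and 4.97 in NEC, a difference of 0.56 (standard error 0.26), with 0.74 in series 1 and 0.20 in series 2. For miR-410-3p, at the end of the run, the difference was 0.35 (standard error 0.41), with 0.23 in series 1 and 0.59 in series 2. Without NEC replicate 1 the difference of miR-410-3p was -0.03, without Control replicate 2 it was 0.11, and without Control replicate 3 or NEC replicate 2 it was 0.60 or 0.58. The tested members of this run thus ranged from -0.03 to 0.72. Leaving out Control replicate 3 or NEC replicate 1, here and below, leaves series 2 in a single group. A change in the difference between NEC and Control then cannot be told apart from the difference between the code series.

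In 7 of the 43 tested members all NEC values lay above all Control values (19 of all 386, 4.92%), and in 0 all lay below (also 4.92% of all 386). These were miR-369-5p, miR-409-5p, miR-412-5p, miR-379-5p, miR-666-5p, miR-382-3p and miR-758-3p. Among them miR-379-5p, the second most abundant member, averaged 11.67 ± 0.19 in Control libraries and 12.23 ± 0.18 in NEC libraries (SD, n = 3 each). The difference of miR-379-5p was 0.56 (standard error 0.24), with 0.58 in series 1 and 0.52 in series 2. Its 3p arm, miR-379-3p, had a difference of -0.07 (standard error 0.29). MiR-666-5p was at 6.21 ± 0.16 in Control and 6.70 ± 0.10 in NEC (SD, n = 3), and the difference was 0.49 in series 1 and 0.48 in series 2. For miR-758-3p it was 0.45 and 0.46. In these 3 miRNAs the code series gave nearly the same difference, and miR-382-3p, with 0.44 and 0.38, was close to this. Each difference within series 2 is that of 1 NEC and 1 Control library and has no spread.

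The other abundant members were less set apart. MiR-381-3p differed by 0.31 (standard error 0.30) and overlapped between the groups, as did miR-541-5p with 0.31 (standard error 0.29), miR-411-5p with 0.38 (standard error 0.37) and miR-300-3p with 0.32 (standard error 0.28). For these 4 the difference was above 0 in both code series, but its size changed when single libraries were left out. Leaving out 1 library at a time gave 0.09 (without NEC replicate 1) to 0.50 (without NEC replicate 3) for miR-381-3p. It gave 0.12 (without NEC replicate 1) to 0.68 (without Control replicate 3) for miR-411-5p, and 0.18 without Control replicate 1. For miR-300-3p the lowest value was 0.17 when Control replicate 1 was left out, with 0.18 for NEC replicate 1, and the highest was 0.52 for Control replicate 3. For miR-541-5p they were 0.11 without NEC replicate 2, 0.16 without Control replicate 3 and 0.47 without NEC replicate 1.

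Several of the larger differences also changed when single libraries were left out. MiR-323-3p was at 7.79, 7.52 and 7.01 in Control replicates 1, 2 and 3 and at 7.24, 8.69 and 8.19 in NEC replicates 1, 2 and 3. Its difference was 0.60 (standard error 0.42), with 0.78 in series 1 and 0.23 in series 2. It was 0.27 without NEC replicate 2, 0.38 without Control replicate 3 and 1.00 without NEC replicate 1. MiR-485-5p, known from rat neurons to repress a protein of synaptic vesicles, had values of 4.87, 5.02 and 4.29 in Control and of 4.63, 5.89 and 5.49 in NEC. The difference of miR-485-5p was 0.61 (standard error 0.38), with 0.75 in series 1 and 0.34 in series 2. It was 0.33 without NEC replicate 2, 0.39 without Control replicate 3 and 0.96 without NEC replicate 1. In both miRNAs NEC replicates 2 and 3 were the highest libraries and Control replicate 3 the lowest. MiR-299b-5p had a difference of 0.60 (standard error 0.56), which rested on a value of 4.11 in Control replicate 2 against 5.58 and 6.31 in the other Control libraries. Without that library the difference was -0.01.

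In 4 tested members the mean was lower in NEC, and in none of them were the groups apart. MiR-487b-3p differed by -0.11 (standard error 0.41), with -0.24 in series 1 and 0.15 in series 2. For miR-379-3p, miR-369-3p and miR-299a-5p the sign of the difference was likewise negative in series 1 and positive in series 2.

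Libraries of the same group and code series were also set against each other. The median absolute difference over the tested members was 0.25 between Control replicates 1 and 2 and 0.25 between NEC replicates 2 and 3. Over all miRNAs tested these were 0.22 and 0.21. These are gaps between single libraries and are not set against differences of group means. Control replicate 1 was above replicate 2 in 31 of the 43 (65% of all miRNAs tested), and NEC replicate 2 above replicate 3 in 25 (51% of all). Single members differed widely between NEC replicates 2 and 3, such as miR-543-3p with 7.45 and 6.54 and miR-485-3p with 7.32 and 6.48. In Control the widest gaps were those of miR-299b-3p, with 5.07 in replicate 1 and 3.12 in replicate 2, and of miR-299b-5p.

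The difference between the code series, which the choice of members did not use, was tested with limma with the condition in the model. Of the 43 tested members 26 passed an adjusted p under 0.05 (57.5% of all 386 miRNAs tested passed). In series 2, 14 of them were higher (25.4% of all) and 12 were lower (32.1% of all). The share of the members was thus near that of all miRNAs. Without NEC replicate 1 the count was 4, and without Control replicate 3 it was 17, each of which leaves series 2 with 1 library that is assumed to vary like the others. When each library was shifted by its median deviation, 14 members were higher and 8 lower, and over all miRNAs tested the split turned from 98 higher and 124 lower to 115 and 94. The median difference of all miRNAs tested was -0.19 as deposited and -0.04 after that shift, and that of the members was -0.21 and -0.05. For 33 of the 43 members, and 295 of all 386, the code series differed more than NEC and Control did.

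MiR-369-3p was among those higher in series 2, with log2 values of 6.10 and 6.42 in its libraries against 5.01 to 5.49 in the 4 libraries of series 1. The difference, series 2 minus series 1, was 1.03 (standard error 0.19, adjusted p = 0.00354, limma). MiR-410-3p followed with 7.34 and 7.93 against 6.36 to 6.89, a difference of 0.94 (standard error 0.18, adjusted p = 0.00416). MiR-376b-5p had a difference of 0.86 (adjusted p = 0.00253, limma), miR-411-5p of 0.84 (adjusted p = 0.00388) and miR-380-3p of 0.84 (adjusted p = 0.00565). For miR-369-3p, miR-410-3p and miR-380-3p the adjusted p without NEC replicate 1 was 0.0529, 0.0601 and 0.0928. The abundant miR-381-3p was higher by 0.59 (adjusted p = 0.0154, limma), and without either library of series 2 it did not pass, with adjusted p of 0.128 and 0.0737.

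Lower in series 2 was miR-485-3p, with 5.33 and 5.35 against 5.97 to 7.32. Its difference was -1.18 (standard error 0.28, adjusted p = 0.0094, limma, and 0.107 without NEC replicate 1). For miR-487b-3p the values were 5.06 and 5.21 against 5.84 to 6.30, a difference of -0.96 (standard error 0.17, adjusted p = 0.00301). MiR-323-3p had a difference of -0.92 (adjusted p = 0.00841, limma, and 0.107 without NEC replicate 1), miR-485-5p of -0.85 (adjusted p = 0.00623, and 0.0897 without NEC replicate 1) and miR-668-3p of -0.85 (adjusted p = 0.00472). In all of these the libraries of the code series did not overlap. Of the 16 members within the Mirg of GENCODE 7 were called lower and 2 higher, and of the 27 before it 5 lower and 12 higher. This split depends on the annotation. With the RefSeq start, miR-485-3p, miR-485-5p, miR-668-3p and miR-382-5p, all called lower, lie before Mirg. The difference between these parts of the locus was not tested.

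The third set of sequences shows members called between the code series, picked for low or high GC content.
miR-410-3p: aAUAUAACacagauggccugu
miR-380-3p: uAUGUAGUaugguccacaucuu
miR-323-3p: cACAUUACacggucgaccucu
miR-485-3p: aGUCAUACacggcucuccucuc
miR-668-3p: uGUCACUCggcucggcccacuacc
Among the 40 tested members with a sequence, the difference between the code series and GC content had a Spearman's correlation of -0.414, and among 300 other tested miRNAs one of -0.393. These points share their libraries and, in part, their precursors. The median GC content was 45.4% for the 13 members higher in series 2, from 23.8% (miR-369-3p) to 50.0%. It was 51.2% for the 10 lower ones, from 40.9% to 66.7% (miR-668-3p), so the ranges overlapped. MiR-300-3p and miR-299a-3p, at 50.0%, were called higher, and miR-329-3p and miR-496a-3p, at 40.9%, were called lower. By position it was 47.8% over 15 members within the annotated Mirg and 45.4% over 25 before it. The part of GC content in the difference between the code series was not tested. The difference between NEC and Control had a Spearman's correlation with GC content of 0.338 among the 40 members and of 0.079 among the 300 others.

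**Figure D3:**
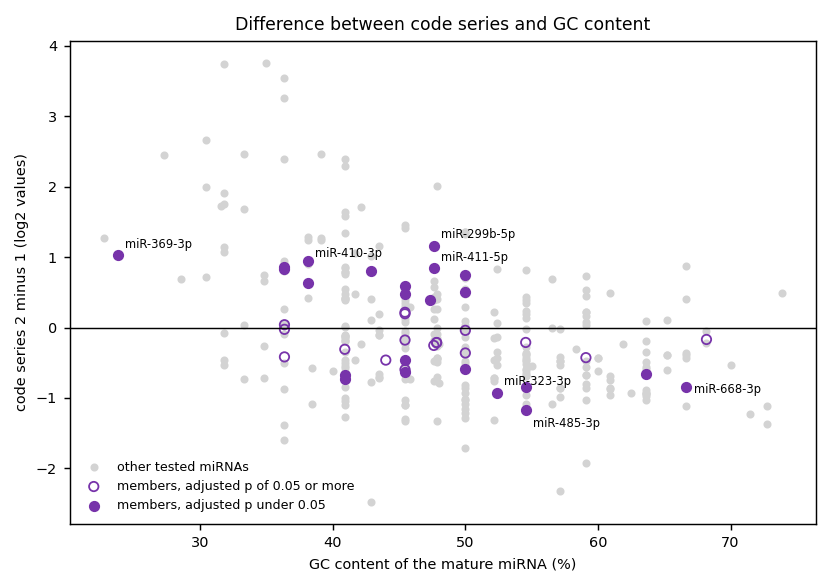
Difference of log2 values, series 2 minus series 1 (vertical axis), against GC content of the mature miRNA in percent (horizontal axis), for 40 members (purple, filled where the adjusted p was under 0.05) and 300 other tested miRNAs (grey). The members lie within the cloud of the others, with miR-369-3p at the low and miR-668-3p near the high end of GC content.

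The arms of a hairpin are cut from the same precursor. The 5p minus 3p value was compared between the code series with limma in the 92 hairpins of the table with both arms tested, of which 49 passed an adjusted p under 0.05 (53.3%). Of the 11 member hairpins 6 passed, with 3 in which the 3p arm gained in series 2 (22.8% of all 92) and 3 in which the 5p arm gained (30.4%). The count was 3 without Control replicate 2 and 3 without NEC replicate 1. For miR-411 the value was 3.32 in series 1 and 4.34 in series 2, a difference of 1.02 (standard error 0.23, adjusted p = 0.00172, limma). For miR-369 the mean value was -0.03 in series 1 and -0.86 in series 2, a difference of -0.83 (standard error 0.28, adjusted p = 0.0197, limma). In Control the miR-369 value was -0.84 and -0.39 in series 1 and -0.82 in series 2, so the code series overlapped there. In NEC it was 0.68 and 0.43 in series 1 and -0.90 in series 2. MiR-409 differed by 0.63 (adjusted p = 0.0303, limma) and miR-382 by -0.56 (adjusted p = 0.0488, limma). The arms of miR-379, miR-329, miR-376b, miR-485 and miR-380 did not pass, with differences of 0.16, 0.09, 0.22, 0.32 and -0.36 and standard errors of 0.21 to 0.26.

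The other 2 hairpins that passed were miR-299a and miR-299b, with opposite signs and nearly the same size. The difference was -1.21 (standard error 0.21, adjusted p = 0.000253, limma) for miR-299a and 1.20 (standard error 0.22, adjusted p = 0.00042, limma) for miR-299b. As shown above, the sequences of the b entries lie within those of the a entries, so these are no separate results. In series 2 miR-299b-5p was higher, at 6.31 and 6.50 against 4.11 to 5.69, and miR-299a-5p was lower, at 4.85 and 4.97 against 5.28 to 5.54. Both 5p entries summed after back-transformation gave log2 values of 5.82 to 6.93, and both 3p entries 6.22 to 7.13, with the highest values in the libraries of series 2 for both sums. The lowest value of both sums was that of Control replicate 2.

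**Figure D4:**
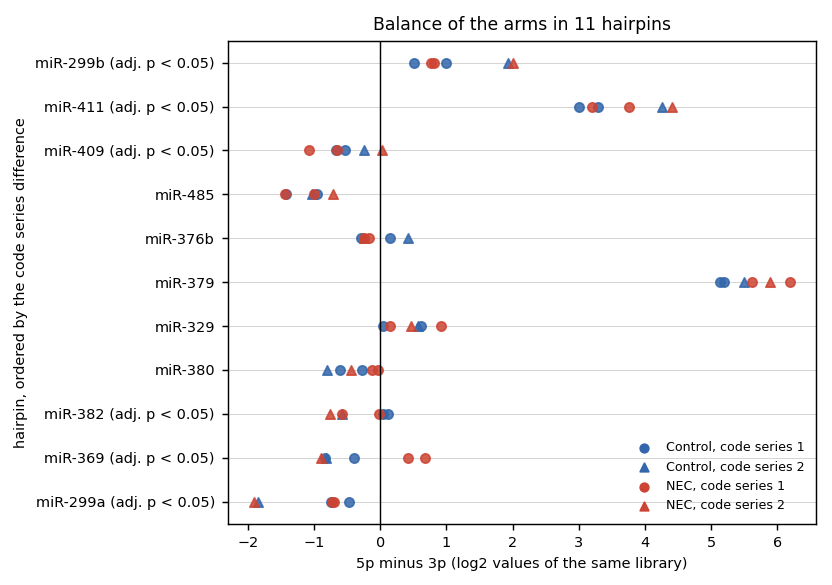
The 5p minus 3p log2 value of the same library (horizontal axis) for the 11 member hairpins with both arms tested (vertical axis), with Control in blue, NEC in red, series 1 as circles and series 2 as triangles. In miR-411, miR-299a and miR-299b the triangles lie apart from the circles, and in miR-369 NEC replicates 2 and 3 lie to the right of 0 and all other libraries to the left.

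Other miRNAs of the Dlk1-Dio3 region lie before the subcluster. Of the miRNAs antisense to Rtl1, a retrotransposon-derived gene that they repress, 10 entries were listed and 9 tested, with 6 higher in NEC and a median difference of 0.18, or 0.19 in series 1 and 0.42 in series 2. Of 16 further entries of the region 9 were tested, with 8 higher and a median of 0.12, which was 0.31 in series 1 and -0.0050 in series 2. Both lists share the libraries with the subcluster, and the difference between them and the 43 members was not tested. Between the code series 3 of the 9 antisense miRNAs were called higher and 4 lower, and 1 and 5 of the other 9.

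Markers of cell types that could carry the subcluster were also set side by side. For 7 miRNAs known from neurons, 5 of them tested, 4 of the 5 were higher in NEC with a median difference of 0.14, or 0.04 in series 1 and 0.20 in series 2. Their summed level on the log2 scale was 10.99 to 11.70 in Control and 11.17 to 12.08 in NEC, and the upper end in each group was the library of series 2. Between the code series 2 of the 5 were called higher in series 2 and 1 lower, with a median difference, series 2 minus series 1, of -0.006. MiR-218-5p, which had the largest mean of these 7, was among the higher ones. The lowest single value was 1.18. No listed miRNA of any kind had a value of 0, so a value above 0 does not show that a marker was detected. MiR-124-3p and miR-9-5p did not reach the minimum for testing. For 6 miRNAs of smooth muscle and mesenchyme, 2 were higher and 4 lower with a median of -0.16 (-0.26 in series 1 and -0.04 in series 2), the summed level being 18.77 to 19.44 in Control and 18.66 to 18.94 in NEC. The summed level of the subcluster was 14.07 to 14.36 in Control and 14.39 to 14.75 in NEC. The part of either cell type in the differences of the subcluster was not tested.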

How the data were processed

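Small RNA libraries of mouse intestine (3 NEC, 3 Control) were made with a NEBNext kit and sequenced single-end by a company, as the study's methods state. The authors deposited 1 table of normalized log2 values, 1 column per library, matched here by the library code in the labels, and no column of values was left unmatched. The authors named DESeq2 in their methods, and the submitters' processing notes name mm10. The aligner, counting tool, miRNA annotation and transformation were not given in the sources used here. Those miRNAs that reached a log2 value of 3.32 in at least 3 libraries entered two-sided tests in limma 3.58.1 under R 4.3.3, with Benjamini-Hochberg adjustment over all miRNAs tested. NEC was compared with Control with no covariate, and the code series with the condition as a covariate. The method was tested on simulated data. For NEC against Control these held no difference between the code series, unlike the deposited values. Sequences and coordinates are those of RefSeq and GENCODE M21 on GRCm38, the assembly of mm10.

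The members, lists, tests and named miRNAs were chosen with earlier results of these data known. Named were miR-369-5p, the 10 members with the largest mean, the 5 with the highest and the 5 with the lowest difference between NEC and Control, the 5 most higher and 5 most lower of those called between the code series, members that share a seed, and hairpins with both arms tested. Members whose groups did not overlap, neighbours of miR-369, members set apart between replicates, and arms or hairpins given for their levels were added after their values were seen. Lists of markers of striated muscle, leukocytes, red blood cells and endothelium and of the Sfmbt2 cluster were also written and showed median differences between NEC and Control of 0.05, -0.14, 0.34, -0.03 and -0.12. The alternatives tried were other scalings, filters, added constants, a robust fit, leaving out each library, a replicate block, a covariate for the code series, and series 1 by itself.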

Additional observations from a re-analysis of the deposited data

How the results depend on the processing

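The count of miRNAs that differed between NEC and Control at an adjusted p under 0.05 in limma was 0 under every alternative but 1. In series 1 alone it was 2, both higher in NEC and neither a member. The median difference of the members stayed above 0 under every alternative, from 0.23 (libraries shifted by their 75th percentile) to 0.38 (without Control replicate 3), and leaving out single libraries gave 0.26 to 0.38. Of the members tested between the code series, 26 were called, and 16 of 25 with the log2 minimum raised to 5.64 (50 after back-transformation). Leaving out single libraries gave 4 to 24. For the balance of the arms 6 hairpins were called, 2 of 5 with the minimum of 5.64, where fewer hairpins are tested, and 3 to 5 when single libraries were left out. Among the 22 named members no called difference between the code series changed its sign. Depth and the transformation are unknown, so no limit from counting error can be given for low members.

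Replicates of NEC and Control share numbers in the labels, and with these numbers as a block in limma 0 miRNAs passed an adjusted p under 0.05, with 3 at an unadjusted p under 0.05 against 11 without the block. Deviations from the group means of same-numbered libraries had correlations across miRNAs of -0.689, 0.734 and -0.778, and not every library correlated best with its own number. The pairs with negative values join libraries of different code series, and the pair with 0.734 joins libraries of the same one. Control replicate 3 and NEC replicate 1, of the same code series, had 0.872. The signs thus go with the code series, so these values cannot show whether the numbers mark pairs of libraries. With the code series as a covariate 70 miRNAs (18.1%), 11 of them members and all 11 higher in NEC, were under 0.05 unadjusted, and 0 passed an adjusted p under 0.05, the smallest being 0.109.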
